A study of Mus musculus with 24 samples.

Results

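Livers of CAR knockout mice given phenobarbital were compared with all other CAR knockout livers, to describe what the drug does where its main receptor is missing. The samples were chosen by title: 2 knockout phenobarbital arrays were set against the 6 other knockout arrays, out of 24 arrays in all. All mice were labelled female, of mixed C57BL/6x129Sv background, and each array held liver RNA of 1 mouse. The sex label was not checked against the expression values. Age is not given in the labels.

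Phenobarbital (written phenobarbitol in the labels) was injected into the peritoneum at 100 mg/kg per day for 3 days at 24 h intervals, and livers were taken 6 h after the last injection. The 6 other knockout mice were 2 given corn oil, the vehicle, 2 given TCPOBOP and 2 given CITCO. TCPOBOP, a ligand of mouse CAR, was given once at 3 mg/kg and followed by corn oil, and CITCO, a ligand of human CAR, was given at 30 mg/kg per day. All 8 knockout mice lacked the mouse CAR gene, so neither ligand had the receptor it is named for. The same drug was given to 2 wild-type mice and to 2 human CAR mice, which lack mouse CAR and carry human CAR as a transgene that the albumin promoter of the mouse drives.

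CAR, encoded by Nr1i3, is a nuclear receptor that phenobarbital sends into the hepatocyte nucleus without binding it as a classical ligand. Together with its relative PXR it switches on enzymes and transporters that oxidise, conjugate and export foreign compounds, with Cyp2b10 as the classical CAR target in mouse liver. Phenobarbital is also known to act on PXR and on signalling from the epidermal growth factor receptor, so responses in mice without CAR have been looked for.

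Values are log2 expression from the deposited table. A change is the mean of both knockout phenobarbital arrays minus the mean of the 6 others, with the standard error (SE) of a limma fit. The p-values were adjusted after Benjamini and Hochberg across 9167 genes, and a gene was called at an adjusted p under 0.05. With 2 phenobarbital mice, the number of arrays limits the precision of every value. Nr1i3 read 5.20 and 5.38 on the phenobarbital arrays and 5.06 to 5.40 over all knockout arrays. It read 6.84 to 8.0 over the 8 wild-type arrays, so all 8 knockout arrays lacked the wild-type level. The 8 human CAR arrays read 5.03 to 5.60, so Nr1i3 cannot tell knockout livers from human CAR livers. Albumin, a defining hepatocyte product, was at 13.39 and 13.42 for Alb on phenobarbital, as the label liver requires.

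Replicate 2 of the phenobarbital mice stood apart from the other knockout arrays, and so did replicate 1 of the human CAR mice on phenobarbital. On the first principal component, with 21.7% of the variance, these arrays lay at -22.3 and -37.4, against 5.50 for knockout phenobarbital replicate 1 and 0.724 to 11.6 for the 6 other knockout arrays. Intact RNA gives a small gap between the 3' probe sets of Actb and Gapdh and their 5' probe sets. That gap was 0.508 and 0.450 on the phenobarbital arrays of replicates 1 and 2, against 0.431 to 0.540 on the 6 others. Over all genes, the deviation from the mean of the 6 had an SD of 0.207 on replicate 1 and 0.381 on replicate 2, while each of the 6 deviated from the other 5 with an SD of 0.182 to 0.233. Replicate 1 held 30 genes at least 1 log2 unit from that mean, and replicate 2 held 227. Both arrays were kept, and many of the results below are given for each array alone as well. Where only a median or change over both arrays is given, the 2 mice may differ.

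No gene was called in the main comparison. The smallest adjusted p was 0.0522, and 57 genes were under 0.1. At an unadjusted p under 0.05, 898 genes (9.80%) were higher and 679 (7.41%) were lower on phenobarbital. Under cyclic loess scaling the balance turned round, with 624 higher and 863 lower at that level. Both phenobarbital arrays lay above all 6 others for 918 genes (10.0%) and below all 6 for 361 (3.94%). Replicate 1 alone lay above all 6 for 2093 genes (22.8%) and below for 931 (10.2%), and replicate 2 for 2714 (29.6%) and 2383 (26.0%). The first 4 percentages over all genes are the background for each count of listed genes below by unadjusted p or by position beyond all 6. For counts by sign, 5198 of the 9167 genes had a positive and 3969 a negative change. Under cyclic loess scaling 4616 were positive. On replicate 1, 5624 genes lay above the mean of the 6 others, and on replicate 2, 4834 did. The median change over all genes was 0.03 (0.00 under cyclic loess scaling).

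The call count depended on which arrays were compared. Replicate 1 alone called 0 genes against the 6 others, with a smallest adjusted p of 0.0609. Replicate 2 alone called 213 higher genes (2.32%) and 483 lower ones (5.27%). In these fits the lone array was assumed to vary like the other groups. Against corn oil alone, both arrays together called 17 higher (0.185%) and 50 lower genes (0.545%). Against TCPOBOP alone 1 gene was called, Kdm5a (0.0109%). Against CITCO alone 4 were called, with Dnase2a and Rnf149 higher (0.0218%) and D6Wsu163e and Parp16 lower (0.0218%). Leaving out TCPOBOP replicate 2 gave 7 calls, among them Ces2a, Dnase2a, Hexa, Cd68, Hsd17b10 and Kdm5a.

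**Figure D1:**
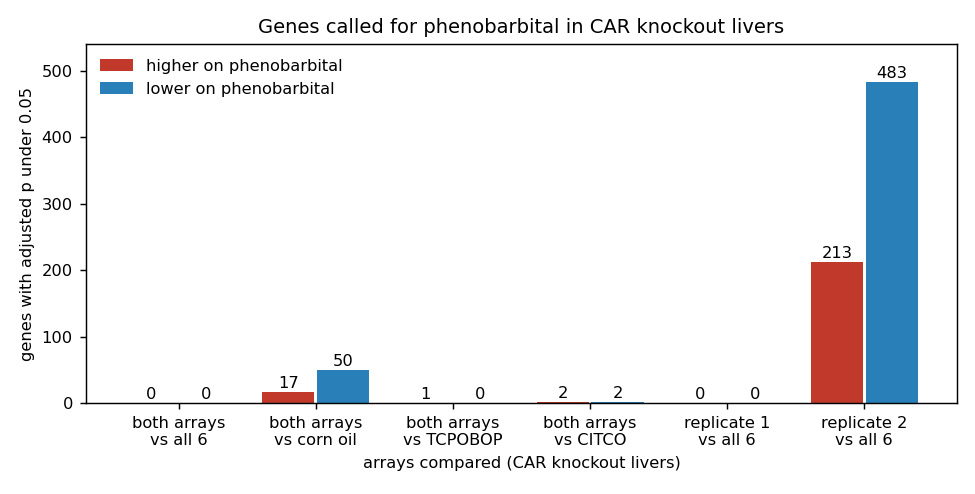
Number of genes with an adjusted p under 0.05 (vertical axis) in CAR knockout livers, higher (red) or lower (blue) on phenobarbital, for each choice of phenobarbital arrays and arrays they were set against. Both arrays against all 6 called 0 genes, whereas replicate 2 alone called 213 and 483.

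Abcc3 and Ces2a, which were named whatever their p, are an exporter of conjugated drugs and bile salts and an ester-cleaving drug hydrolase. Neither was called in the main comparison. Promoters of 4 drug-handling and glutathione genes described below are shown as sequence context. They are 300-base windows from RefSeq on GRCm38.p6 around the annotated start. Capitals mark matches on either strand to the nuclear receptor hexamers AGGTCA and AGTTCA or to TGACNNNGC, the core of the antioxidant response element. Of 32851 mouse promoter windows, 16.3% hold AGGTCA, 14.0% AGTTCA and 12.4% TGACNNNGC. Ces2a lies at chr8:104733753-104734052 on the plus strand, Cyp3a25 at chr5:146009569-146009868 on the minus strand, Cbr1 at chr16:93607587-93607886 on the plus strand and Gclm at chr3:122245307-122245606 on the plus strand.
Ces2a: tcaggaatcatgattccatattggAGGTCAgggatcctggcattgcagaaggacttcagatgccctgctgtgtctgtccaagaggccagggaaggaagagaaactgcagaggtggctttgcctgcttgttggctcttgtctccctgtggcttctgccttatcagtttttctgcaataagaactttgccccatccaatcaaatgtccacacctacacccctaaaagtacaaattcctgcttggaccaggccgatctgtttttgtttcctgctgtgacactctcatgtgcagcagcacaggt
Cyp3a25: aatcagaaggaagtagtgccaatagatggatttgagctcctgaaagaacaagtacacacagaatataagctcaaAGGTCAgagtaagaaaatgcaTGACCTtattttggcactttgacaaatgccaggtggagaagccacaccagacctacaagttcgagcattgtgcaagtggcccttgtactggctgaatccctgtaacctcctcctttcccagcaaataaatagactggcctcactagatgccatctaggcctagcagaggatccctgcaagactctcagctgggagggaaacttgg
Cbr1: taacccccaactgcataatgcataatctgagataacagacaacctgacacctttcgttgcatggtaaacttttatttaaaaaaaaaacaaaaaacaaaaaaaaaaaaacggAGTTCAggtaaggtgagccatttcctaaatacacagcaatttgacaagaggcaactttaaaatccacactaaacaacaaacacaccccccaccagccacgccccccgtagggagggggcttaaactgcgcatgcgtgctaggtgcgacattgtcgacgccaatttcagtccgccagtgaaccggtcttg
Gclm: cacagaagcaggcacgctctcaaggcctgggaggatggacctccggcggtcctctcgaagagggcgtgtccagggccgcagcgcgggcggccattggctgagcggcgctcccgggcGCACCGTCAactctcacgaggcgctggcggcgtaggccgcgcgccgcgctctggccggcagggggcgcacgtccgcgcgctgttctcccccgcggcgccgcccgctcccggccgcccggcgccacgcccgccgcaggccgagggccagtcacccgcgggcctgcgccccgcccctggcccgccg
The Cyp3a25 window held 2 matches to AGGTCA, and the others 1 match each, of AGGTCA in Ces2a, AGTTCA in Cbr1 and TGACNNNGC in Gclm. The window of Slco1a4, searched as well and not printed, held 0 matches to the 3 motifs. A match describes the letters and shows no binding.

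Abcc3 read 9.47 and 9.39 on phenobarbital, against 8.26 and 8.50 on corn oil, 9.09 and 9.11 on TCPOBOP and 8.78 and 8.84 on CITCO. Both phenobarbital arrays lay above all 6 others, and the corn oil arrays were lowest. The change was 0.66 (SE 0.12, adjusted p = 0.074). Against corn oil alone it was 1.05 and passed (adjusted p = 0.0143). Over the alternative settings the main adjusted p ran from 0.0143 to 0.593.

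Ces2a read 10.56 on both phenobarbital arrays, against 9.60 and 9.96 on corn oil, 9.81 and 10.58 on TCPOBOP and 9.82 and 9.86 on CITCO. TCPOBOP replicate 2 lay as high as the phenobarbital arrays, and the other 5 lay lower. The change was 0.62 (SE 0.16, adjusted p = 0.123). Without that TCPOBOP array Ces2a was 0.75 higher and was called (adjusted p = 0.0363). The range of the adjusted p over the alternatives was 0.0363 to 0.676.

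Among drug-metabolising cytochrome P450 genes, 27 of 41 listed genes were tested and 0 were called. Their median change was 0.16, against 0.03 over all genes, with 5 upward and 3 downward at an unadjusted p under 0.05 and 4 above all 6 others. The list's median was 0.11 on replicate 1 and 0.24 on replicate 2, against -0.07 to 0.12 on the 6 others. The TCPOBOP arrays were highest of these, at 0.10 and 0.12. Against TCPOBOP alone the median change was -0.01, against corn oil 0.25 and against CITCO 0.20. The members nearest the threshold were of the Cyp3a and Cyp2c families, oxidases with wide substrate ranges. Cyp3a25 read 11.35 and 11.41 on phenobarbital, against 10.42 to 11.28 with a median of 10.68 on the 6 others (change 0.63, SE 0.18, adjusted p = 0.147). Cyp2c54 read 9.44 and 9.06, against 8.04 to 8.83 with a median of 8.47 (change 0.78, SE 0.26, adjusted p = 0.178). Both groups were separate for these 2 genes. Probe sets of closely related P450 genes can share signal, so single family members are uncertain.

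The classical CAR and PXR targets overlapped the other knockout arrays. Cyp2b10 read 5.19 and 5.71 on phenobarbital, against 4.45 to 5.42 with a median of 4.81 (change 0.59, SE 0.31, adjusted p = 0.338), with replicate 2 above all 6 others and 5 of the 6 under the dim limit of 4.93 to 5.08 used for filtering. Cyp2c55 differed by 0.05 (SE 0.36, adjusted p = 0.953). Cyp3a11, the main mouse PXR target, read 11.92 and 12.24, against 11.59 to 12.27 (change 0.16, SE 0.12, adjusted p = 0.504). Cyp1a2, an oxidase of aromatic amines, differed by -0.38 (SE 0.18, adjusted p = 0.285). Cyp2b9, a female-biased relative, read 4.27 and 4.45, below all 6 others, but these ran from 4.47 to 8.08 and both phenobarbital arrays were under the dim limit, so the size of the change is uncertain (change -1.94, SE 0.65, adjusted p = 0.182).

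**Figure D2:**
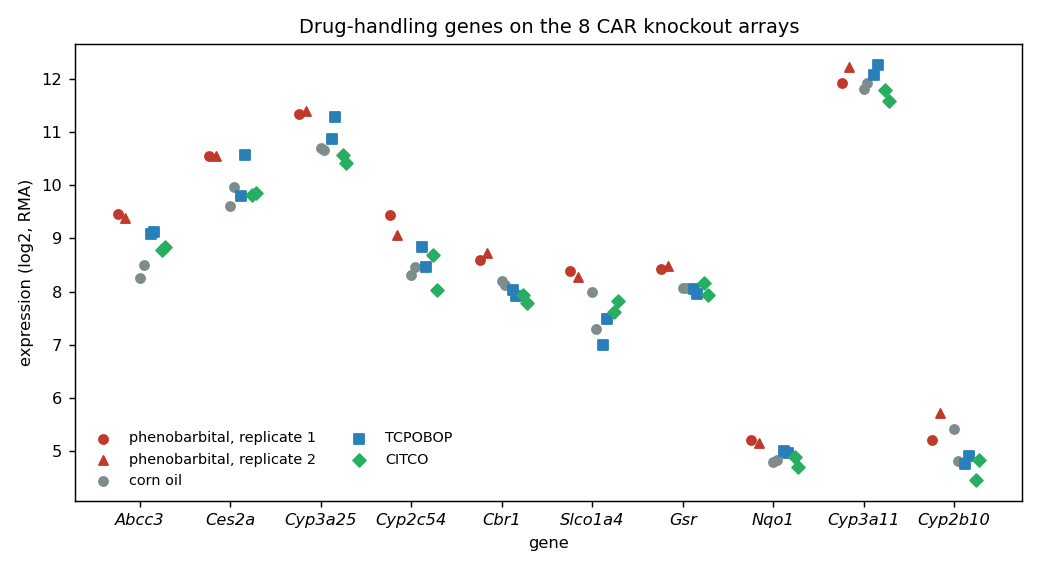
Log2 expression (vertical axis) of 10 drug-handling genes on each of the 8 CAR knockout arrays, phenobarbital in red and the other treatments to its right. Both phenobarbital points lie above all others for Abcc3, Cyp3a25, Cyp2c54, Cbr1, Slco1a4, Gsr and Nqo1, and Cyp3a11 lies among them.

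Of 23 aldehyde, carbonyl and flavin enzymes 18 had a negative change, with a median of -0.13, 2 above and 3 below all 6 others. The mice differed here, with a median of 0.03 and 14 positive on replicate 1, and -0.31 and 4 positive on replicate 2. Of 13 carboxylesterases and hydrolases the median was 0.00, with 0 above and 0 below. It was 0.09 on replicate 1 and -0.08 on replicate 2. Cbr1, a carbonyl reductase, read 8.59 and 8.73 on phenobarbital, against 7.77 to 8.21 with a median of 7.98 (change 0.66, SE 0.19, adjusted p = 0.145). Ephx1, an epoxide hydrolase, and Ces1d, a carboxylesterase, were 0.44 and 0.63 higher (adjusted p = 0.167 and 0.181) and overlapped the TCPOBOP arrays. Aox3, an aldehyde oxidase, read 9.12 and 8.78, against 9.12 to 9.96 (change -0.62, SE 0.16, adjusted p = 0.116). Conjugating enzymes had medians near that of all genes. Of 20 glutathione transferase genes the median change was -0.03 with 1 above all 6 others, Gstm2 (change 0.49, adjusted p = 0.339). That list's median was 0.14 on replicate 1, with 16 positive, and -0.13 on replicate 2, with 6 positive. Of 18 genes of glucuronidation and sulfation the median change was 0.04 with 1 above, Ugt2b34 (change 0.20, adjusted p = 0.368), whose probe sets disagreed in sign.

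Of 21 transporter genes tested, Slco1a4, an uptake carrier of organic anions, was the other gene beside Abcc3 above all 6. It read 8.38 and 8.27, against 6.99 to 7.98 with a median of 7.55 (change 0.80, SE 0.32, adjusted p = 0.239). Abcb11, the bile salt export pump, read 9.64 and 8.93, against 9.46 to 10.00 (change -0.44, SE 0.16, adjusted p = 0.203). Nr1i2, which encodes PXR, read 5.99 and 6.09, below all 6 others at 6.11 to 6.51 (change -0.30, SE 0.13, adjusted p = 0.27).

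Targets of NRF2, a transcription factor that answers oxidative and electrophile stress, were another group with separate members. Of 23 tested, 0 were called, 6 were higher at an unadjusted p under 0.05 and 5 (21.7%) lay above all 6 others, with a median change of 0.14. The 5 were Abcc3, Gsr, Gclm, Nqo1 and Fth1, the ferritin heavy chain. Gsr, which regenerates glutathione, read 8.43 and 8.48, against 7.94 to 8.16 (change 0.42, SE 0.09, adjusted p = 0.0841). Gclm, a subunit of the enzyme that starts glutathione synthesis, read 9.79 and 9.82, against 9.04 to 9.67 (change 0.45, SE 0.20, adjusted p = 0.27). Nqo1, a quinone reductase, read 5.20 and 5.14, against 4.70 to 4.99 (change 0.31, SE 0.10, adjusted p = 0.168). All 6 other arrays were under the dim limit for Nqo1, so the size of its change is uncertain. The list's median was 0.19 on replicate 1 and 0.00 on replicate 2, where Nfe2l2, the gene of NRF2 itself, read 4.62, against 6.98 on replicate 1 and 6.96 to 7.37 on the 6 others.

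Hsd17b10, Kdm5a and Dnase2a had the smallest adjusted p, and Abcc3 came next; the first 2 were named after their values were seen. Hsd17b10, a mitochondrial dehydrogenase and subunit of mitochondrial RNase P, read 9.60 and 9.76, against 8.87 to 9.29 with a median of 9.08 (change 0.60, SE 0.09, adjusted p = 0.0522). Kdm5a, a histone demethylase, read 5.71 and 5.93, against 4.76 to 5.43 with a median of 5.23 (change 0.70, SE 0.11, adjusted p = 0.0522). The lowest of these other values was under the dim limit, so the size of the Kdm5a change is uncertain. Dnase2a, the lysosomal deoxyribonuclease, read 7.88 and 7.25, against 5.55 to 7.04 with a median of 5.83 (change 1.56, SE 0.26, adjusted p = 0.0522). In each of these genes the groups were separate, and TCPOBOP replicate 2 gave the highest other value of Dnase2a. Csad, a taurine synthesis enzyme, read 8.97 and 8.25, against 6.22 to 7.76 (change 1.72, SE 0.36, adjusted p = 0.0841).

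On the lower side, Phlda1, an early growth-factor response gene, read 6.16 and 5.26, against 6.87 to 8.16 with a median of 7.35 (change -1.73, SE 0.32, adjusted p = 0.0799). Ccnd1, cyclin D1, which drives entry into the cell cycle, read 6.39 and 5.90, against 6.81 to 7.75 with a median of 7.48 (change -1.23, SE 0.27, adjusted p = 0.0841). Ccnd1 passed against corn oil alone, where it was 1.53 lower. Lifr, the leukaemia inhibitory factor receptor, read 8.35 and 7.57, against 8.48 to 9.79 (change -1.02, SE 0.22, adjusted p = 0.0841). Lpl, lipoprotein lipase, read 5.84 and 5.33, against 6.72 to 6.91 (change -1.25, SE 0.32, adjusted p = 0.116). Lpl was the only call in a fit of the 8 knockout arrays as 2 groups. In all 4 genes replicate 2 was the lower of the phenobarbital mice. Other probe sets gave smaller falls, with -0.41 and -0.98 for Ccnd1, -0.10 and -0.42 for Lifr and -0.33 for Lpl. Of 26 genes of S phase and mitosis the median change was -0.01, with 0 upward and 1 downward at an unadjusted p under 0.05.

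Proteasome subunits, which form the complex that degrades ubiquitin-tagged proteins, had mostly positive changes. Of 29 tested, 27 had a positive change, 12 were higher at an unadjusted p under 0.05, and 8 (27.6%) lay above all 6 others. The median change was 0.16, made of 0.31 on replicate 1, where 29 of 29 were positive, and 0.06 on replicate 2, where 18 were. None was called. Psmd12, a lid subunit, read 8.59 and 8.68, against 8.17 to 8.35 (change 0.39, SE 0.08, adjusted p = 0.0841). Psmc1, a base ATPase, read 8.28 and 8.14, against 7.52 to 7.90 (change 0.48, SE 0.11, adjusted p = 0.0841).

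Genes of methionine and one-carbon metabolism had a median change of 0.17, with 0.19 on replicate 1 and 0.18 on replicate 2. Of 19 tested, 0 were called, 6 passed an unadjusted p under 0.05 upward and 2 downward, and 4 (21.1%) lay above all 6 others, Csad among them. Dmgdh, which demethylates dimethylglycine, read 9.48 on both arrays, against 8.85 to 9.19 (change 0.40, SE 0.11, adjusted p = 0.132). Bhmt, which remethylates homocysteine with betaine, read 11.93 and 12.07, against 11.29 to 11.86 (change 0.42, SE 0.13, adjusted p = 0.173). Chdh, which makes betaine from choline, read 8.85 and 7.99, against 8.85 to 9.25 (change -0.59, SE 0.16, adjusted p = 0.133). The urea cycle genes Cps1 and Arg1 were 0.29 and 0.34 higher (adjusted p = 0.158 and 0.172), both above all 6 others.

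Genes of the endoplasmic reticulum stress list had a median change of 0.09 over 25 tested, with 4 higher at an unadjusted p under 0.05 and 0 called. Atf4, the transcription factor of the integrated stress response, read 8.81 and 9.46, against 8.43 to 8.70 (change 0.62, SE 0.14, adjusted p = 0.0841). Hamp, which encodes hepcidin, the hormone that limits iron uptake, read 12.02 and 12.28, against 9.99 to 11.98 (change 1.03, SE 0.35, adjusted p = 0.182). Its CITCO arrays read 11.98 and 11.97 and lay close to the phenobarbital arrays, while the corn oil arrays read 10.85 and 9.99. The copy Hamp2 was 2.09 higher than on corn oil and was called there (adjusted p = 0.0144), but its main change was 0.89 (SE 0.27, adjusted p = 0.166). Hamp and Hamp2 are near copies, so their probe sets can share signal.

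Genes of fatty acid use had mostly negative changes. Of 18 tested targets of PPARA, the fatty acid sensor of liver, 16 had a negative change and 7 were lower at an unadjusted p under 0.05. Their median change was -0.38, with -0.41 on replicate 1, -0.29 on replicate 2 and -0.48 to 0.33 on the 6 others. The TCPOBOP arrays lay highest and a CITCO array lowest in this list. Of 30 fatty acid oxidation genes, 27 were negative and 10 were lower at an unadjusted p under 0.05, with a median of -0.19. This was -0.11 on replicate 1 and -0.22 on replicate 2, against -0.16 to 0.16 on the 6 others. Neither list held a called gene. The median changes of both lists kept their sign under cyclic loess scaling, as did those of all other lists given here.

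Nudt7, a peroxisomal coenzyme A hydrolase, read 9.93 and 9.0, against 10.09 to 10.65 (change -1.01, SE 0.27, adjusted p = 0.126). Ppara itself read 7.96 and 6.77, against 7.69 to 9.02 (change -1.15, SE 0.32, adjusted p = 0.133). Fabp1, the liver fatty acid binding protein, read 11.85 and 10.60, against 11.67 to 12.37 (change -0.76, SE 0.21, adjusted p = 0.141). In Ppara and Fabp1 only replicate 2 lay below all 6 others. Among 24 lipogenesis genes the median was -0.01 on replicate 1 and -0.53 on replicate 2. Elovl6, a fatty acid elongase, read 7.49 on replicate 1 and 5.63 on replicate 2, against 7.38 to 8.36. Fads2, a desaturase, read 9.19 and 8.41, below all 6 others at 9.50 to 9.77 (change -0.83, SE 0.25, adjusted p = 0.164).

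Cholesterol synthesis genes lay on opposite sides of the other knockout arrays in the 2 phenobarbital mice. Of 19 tested genes, 19 lay above the mean of the 6 others on replicate 1 and 18 lay below it on replicate 2. The list's median was 0.94 on replicate 1 and -0.61 on replicate 2, against -0.65 to 0.30 on the 6 others, where CITCO replicate 2 gave the lowest value. The main median of 0.05 therefore describes neither mouse. Lss, which closes the sterol rings, read 9.09 and 6.96, against 6.98 to 8.01. Cyp51, a sterol demethylase, read 8.71 and 6.92, against 6.61 to 7.68. No member was called.

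Of 17 bile acid genes the median was 0.10 on replicate 1 and -0.07 on replicate 2, both inside the -0.26 to 0.14 of the 6 others. Cyp7a1, which controls the classical route of bile acid synthesis, read 10.33 on replicate 1 and 6.80 on replicate 2, against 8.95 to 10.34 on the 6 others (change -1.27, SE 0.67, adjusted p = 0.341). Cyp27a1, a mitochondrial enzyme of the alternative route, read 11.16 and 11.14, above all 6 others at 10.46 to 10.96 (change 0.43, SE 0.11, adjusted p = 0.126). Pck1, a gene of glucose production, differed by -0.24 (SE 0.54, adjusted p = 0.84).

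Further contrasts between the phenobarbital mice, again named after their values were seen, involved stress, fasting and clock genes. Igfbp1, an insulin-repressed binding protein, read 7.75 on replicate 1 and 12.22 on replicate 2, against 7.28 to 10.95 on the 6 others. Gadd45a, a stress gene, read 3.75 and 6.14, against 3.36 to 3.60, where every array but replicate 2 was under the dim limit. Cdkn1a, the cell cycle inhibitor p21, read 6.52 and 8.63, against 6.26 to 7.0. Dbp, a clock output gene, read 8.61 and 4.48, against 6.75 to 9.43. In each of these genes replicate 2 lay outside the 6 others. The 20 tested early growth genes had a median of -0.02 on replicate 1 and 1.05 on replicate 2, against -0.12 to 0.14 on the 6 others, and Gadd45b, a CAR target also induced by stress, read 5.69 and 6.88, against 5.35 to 5.82. With 1 array per mouse, the array cannot be told apart from the mouse, and the hybridisation batch is not given in the sources used here. These genes lie beside all results that rest on replicate 2, and their part in those results was not tested. Cyp26a1, which degrades retinoic acid, went the other way, with 8.97 on replicate 1 and 6.88 on replicate 2, against 6.13 to 7.33.

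**Figure D3:**
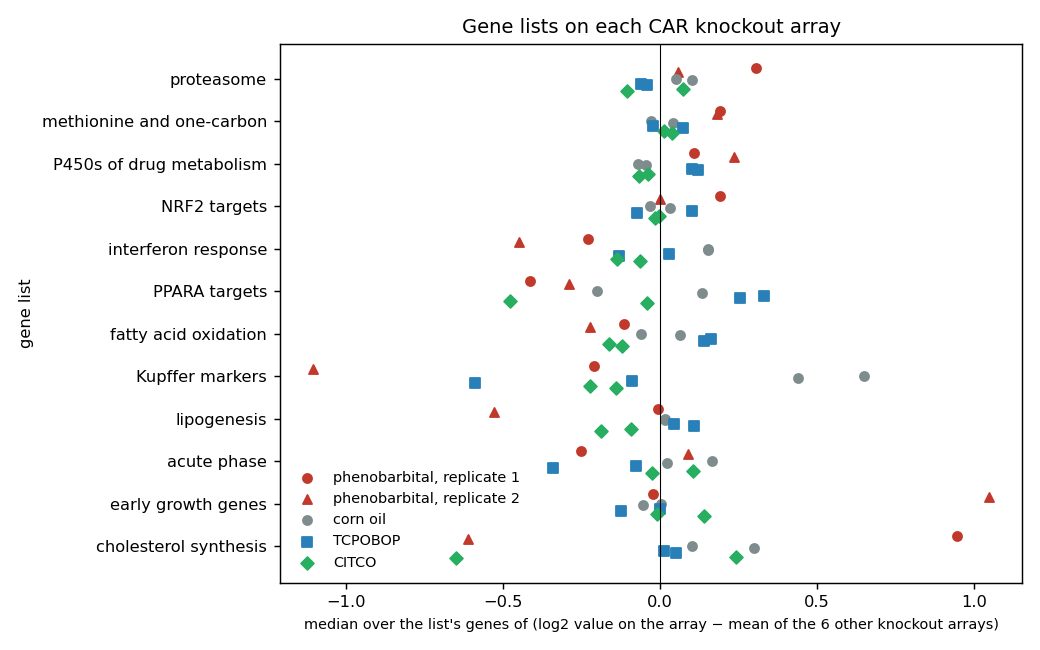
Median over each gene list of the log2 value on an array minus the mean of the 6 other CAR knockout arrays (horizontal axis), for 12 lists (vertical axis). Each point is 1 array, with phenobarbital replicate 1 as red circles and replicate 2 as red triangles, which lie at 0.94 and -0.61 for cholesterol synthesis and at -0.02 and 1.05 for early growth genes.

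Markers of Kupffer cells, the resident macrophages of liver, had a negative change in all 17 tested genes, with a median change of -0.61 and 12 lower at an unadjusted p under 0.05. None lay below all 6 others on both arrays, and 0 were called. The list's median was -0.21 on replicate 1 and -1.10 on replicate 2, against -0.59 to 0.65 on the 6 others. The log2 of the summed level was 10.9 to 11.8 on phenobarbital and 11.4 to 12.5 on the 6 others. Against corn oil the median change was -1.21, against TCPOBOP -0.26 and against CITCO -0.46, so the corn oil arrays stood high in these genes. Cd68, a macrophage lysosome protein, read 5.55 and 4.85, against 6.71 and 6.61 on corn oil, 6.12 and 5.45 on TCPOBOP and 5.90 and 5.87 on CITCO (change -0.91, SE 0.18, adjusted p = 0.0841). Replicate 2 was under the dim limit for Cd68, so the size of its change is uncertain. Marco, a scavenger receptor, read 5.85 and 5.63, against 7.33 and 7.28 on corn oil and 5.61 to 6.21 on the 4 others.

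Cd68, Cd5l, Folr2, Marco, C1qc and Mpeg1 fell against corn oil alone (adjusted p between 0.0144 and 0.0451), and were among the 50 lower calls there. Cd5l fell by 1.67, the most of these, and Mpeg1 fell by 1.26, the least. In whole liver, fewer cells of a type and less RNA per cell cannot be told apart. Marco was also 1 of 5 genes that differed among the corn oil, TCPOBOP and CITCO groups (0.0545% of genes), with Avpr1a, Cyp4a12a, Ifi27l2a and Parp16. The part of macrophage RNA in the other lower genes was not tested.

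Markers of other liver cells gave smaller medians. Of 16 endothelial genes the median was -0.14, with 0.01 on replicate 1 and -0.29 on replicate 2. Stab2, a sinusoidal scavenger receptor, read 7.36 and 6.85, below all 6 others at 7.42 to 8.01 (change -0.66, SE 0.18, adjusted p = 0.139). The 12 stellate and fibroblast genes had a median of -0.13, the 10 neutrophil genes 0.12 and the 9 lymphocyte genes 0.20. The neutrophil median was -0.06 on replicate 1 and 0.24 on replicate 2. Of the 13 hepatocyte genes 11 were positive with a median of 0.05, and their summed level was 16.3 on both phenobarbital arrays and 16.2 to 16.3 on the others. Only 3 cholangiocyte and 2 red cell genes were bright enough to test. Alas2, the heme synthesis enzyme of red cell precursors, read 7.39 and 7.29, below all 6 others at 7.87 to 8.53 (change -0.79, SE 0.19, adjusted p = 0.0986). Car1, the other red cell gene tested, had a change of 0.14 in the opposite direction.

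Interferon-induced genes, which restrict viruses, had mostly negative changes. Of 21 tested, 18 had a negative change, 10 were lower at an unadjusted p under 0.05, 5 (23.8%) lay below all 6 others, and 0 were called. The median change was -0.26, with -0.23 on replicate 1 and -0.45 on replicate 2, against -0.14 to 0.15 on the 6 others. Rsad2, viperin, read 5.65 and 5.56, against 5.92 to 6.67 (change -0.74, SE 0.16, adjusted p = 0.0841). Usp18, a brake on interferon signalling, read 5.22 and 4.24, against 5.54 to 6.41 (change -1.27, SE 0.32, adjusted p = 0.116). Replicate 2 was under the dim limit for Usp18, so the size of its change is uncertain.

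Secreted liver proteins gave small negative medians over both arrays. The 27 acute phase genes had a median of -0.07, which describes neither mouse. It was -0.25 on replicate 1 and 0.09 on replicate 2, both inside the -0.34 to 0.17 of the 6 others. Saa1, serum amyloid A, differed by -0.33 (SE 0.16, adjusted p = 0.294). Of 29 complement and coagulation genes, 8 lay lower and 1 higher by an unadjusted p under 0.05, with a median of -0.14. C9, the final component of the complement pore, read 10.30 and 10.40, below all 6 others at 10.81 to 11.37 with a median of 10.98 (change -0.65, SE 0.14, adjusted p = 0.0841). Lysosomal genes had a median of -0.12 over 24 tested, and Hexa and Ctsb were 0.65 and 0.50 lower (adjusted p = 0.0808 and 0.0841), while Dnase2a was higher.

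The same drug was then read in the mice that carry a CAR. Their values enter no mean of the knockout comparison, but all 24 arrays share the fit's estimate of the spread (12 residual degrees of freedom) and the filter on dim genes. A fit of the 8 knockout arrays alone, in 4 groups, also called 0 genes. Against corn oil in wild type, 82 genes rose (0.895%) and 53 fell (0.578%) on phenobarbital, while an unadjusted p under 0.05 was reached by 6.13% upward and 7.44% downward. Against corn oil and TCPOBOP in human CAR mice, 54 rose (0.589%) and 198 fell (2.16%), with 7.20% upward and 15.4% downward at the unadjusted level. The total was 3 without human CAR phenobarbital replicate 1 and 1518 without replicate 2. The wild-type count was 19 to 59 when 1 array was left out.

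Of the 898 genes higher in knockout at an unadjusted p under 0.05, 71.2% also had a positive change in wild type, where 49.4% of all genes did. Of those 898, 21 (2.34%) rose in wild type, against 0.895% of all genes. Of the 679 lower genes, 72.5% were negative in wild type, where 50.6% of all genes were. There 10 of the 679 (1.47%) fell, against 0.578% of all genes. In human CAR mice the shares were 79.2% of the higher genes, against 46.6% of all, and 85.6% of the lower genes, against 53.4% of all. Of the higher genes 13 (1.45%) rose there, against 0.589% of all. Of the lower genes 72 (10.6%) fell there, against 2.16% of all. Each of these phenobarbital groups holds an array that stands apart on the first principal component (knockout replicate 2 at -22.3 and human CAR replicate 1 at -37.4), and the part of these arrays in the shares was not tested. Genes are not independent replicates, and these shares are given without a test.

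Abcc3 rose by 1.66 in wild type (SE 0.14, adjusted p = 1.13e-05) and by 0.68 in human CAR mice (SE 0.12, adjusted p = 0.0155), beside the 0.66 in knockout. The human CAR call was lost without phenobarbital replicate 1 (adjusted p = 0.22). Ces2a rose by 2.19 in wild type (SE 0.20, adjusted p = 1.13e-05), beside 0.57 in human CAR mice (adjusted p = 0.0723) and 0.62 in knockout. Cyp3a25, Cyp2c54, Cbr1 and Ephx1 rose in wild type by 1.05, 1.83, 1.17 and 1.08, though each of these 4 calls was lost when at least 1 wild-type array was left out. C9 fell in wild type by 0.95 (adjusted p = 0.00785) and in human CAR mice by 0.79 (adjusted p = 0.0155), beside -0.65 in knockout. Its wild-type call was lost in 2 of 4 fits that left out an array (largest adjusted p 0.182), and its human CAR call without phenobarbital replicate 1 (adjusted p = 0.389). Gsr differed by 0.42 in knockout and 0.35 in wild type and rose by 0.37 in human CAR mice (adjusted p = 0.0486), a call lost in 5 of 6 fits that left out an array.

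**Figure D4:**
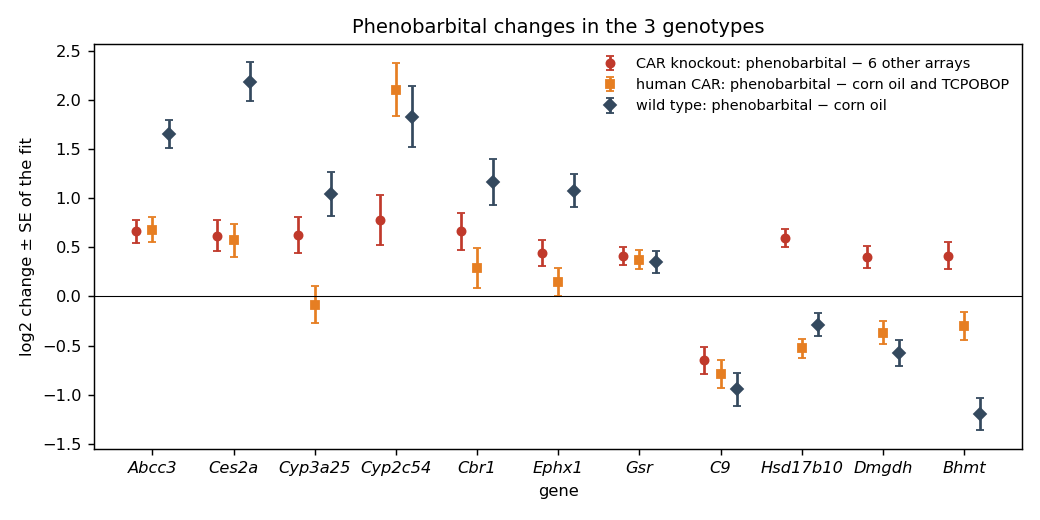
Log2 change on phenobarbital with the SE of the fit (vertical axis) for 11 genes in CAR knockout (red circles), human CAR (orange squares) and wild-type mice (dark diamonds), each against the arrays named in the legend. Abcc3 and Ces2a are positive in all 3 genotypes, C9 is negative in all 3, and Hsd17b10, Dmgdh and Bhmt are positive in knockout and negative in both other genotypes.

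The difference between the genotypes was tested directly, as the change from corn oil in knockout minus that in wild type, and 14 genes passed: 3 were higher (0.0327%) and 11 lower (0.120%) in this difference. At the unadjusted level the shares were 4.44% and 4.70%. Cyp2b10 rose by 7.03 in wild type and differed by 0.34 from corn oil in knockout, a difference of -6.70 (SE 0.54, adjusted p = 9.8e-06). Cyp2c55, a CAR-responsive P450, gave -4.59 (SE 0.62, adjusted p = 0.00403), and Slc23a2, a vitamin C carrier that fell by 0.72 against corn oil in knockout (adjusted p = 0.0412), gave -1.92 (SE 0.21, adjusted p = 0.000449). These 3 genes passed with each of the 8 arrays left out in turn. Each of the other 11 lost its call when only knockout phenobarbital replicate 2 was left out. Some of them passed when human CAR phenobarbital replicate 1 was left out as well, such as Bhmt with 1.42 and Stmn1 with -1.45. The losses therefore also depended on the other arrays in the fit. A second Slc23a2 probe set changed by -0.002 against the 6 other knockout arrays, beside -0.46 for the 1 used. With probe sets averaged, the Slc23a2 difference was -1.25.

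The 3 genes higher in the difference were Bhmt, Dmgdh and Hsd17b10. Bhmt fell by 1.20 in wild type (adjusted p = 0.000878) and differed by 0.29 from corn oil in knockout, a difference of 1.49 (SE 0.23, adjusted p = 0.012). Dmgdh gave 1.04 (SE 0.19, adjusted p = 0.0349) and Hsd17b10 gave 1.00 (SE 0.16, adjusted p = 0.0141), and all 3 of these calls were lost without knockout phenobarbital replicate 2 (largest adjusted p over the fits 0.121, 0.231 and 0.0877). Hsd17b10 fell by 0.53 in human CAR mice (adjusted p = 0.0178), a call lost in 1 of 6 fits that left out an array. The remaining lower genes were Rarb, a retinoic acid receptor, with -1.74, Aldh1a7, an aldehyde dehydrogenase, with -1.43, Spsb4 with -1.50, Stmn1, a microtubule regulator, with -1.50, 4931406C07Rik with -1.52, Slc22a26 with -1.39, Tnfaip2 with -0.92 and Ccl9, a chemokine, with -2.35. Rarb and Spsb4 were under the dim limit on both knockout phenobarbital arrays. Abcc3 and Ces2a did not pass, with -0.61 (SE 0.20, adjusted p = 0.358) and -1.41 (SE 0.28, adjusted p = 0.0536).

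**Figure D5:**
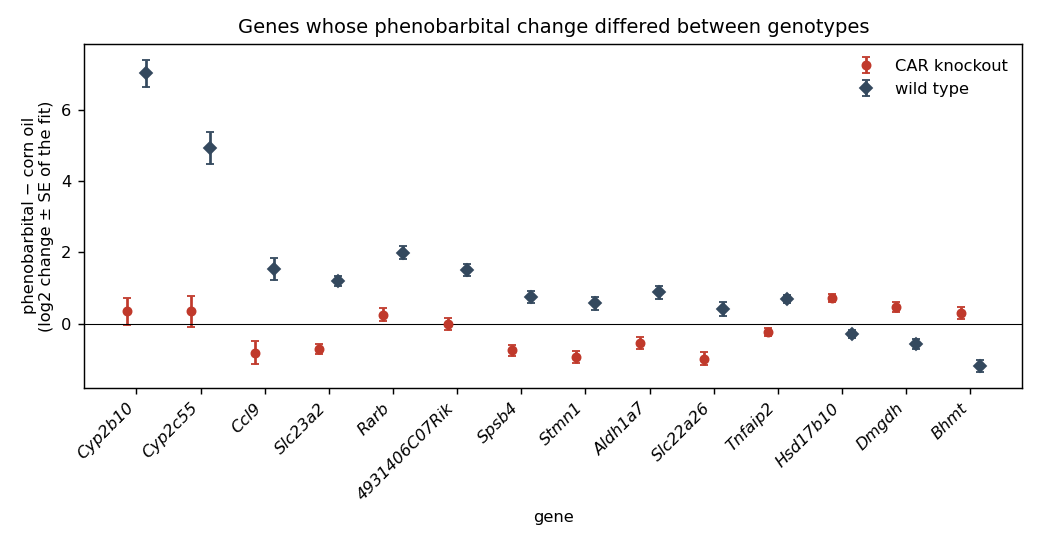
Log2 change of phenobarbital from corn oil with the SE of the fit (vertical axis) in CAR knockout (red circles) and wild type (dark diamonds) for the 14 genes whose change differed between them. Cyp2b10 and Cyp2c55 lie at 0.34 each in knockout and at 7.03 and 4.93 in wild type.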

How the data were processed

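Liver RNA of 24 mice in 12 groups of 2 was read on Affymetrix arrays, 1 array per mouse. The authors deposited log2 values per probe set, made with RMA in R 2.15.0 per the submitters' processing notes. The table held 22690 probe sets, 64 of them controls, and 0 columns of per-sample values were left unused. Of the probe sets, 20380 had 1 gene symbol, 691 several and 1555 were not listed in the probe annotation. The brightest probe set stood for each of 12393 genes. Genes above the 40th percentile of an array on at least 2 arrays were tested, 9167 in all. Of 134 other probe sets of named genes, 14 had a change of opposite sign. A single limma model (version 3.58.1, run in R 4.3.3) held the 12 group means over 24 arrays. It used Benjamini-Hochberg adjustment and a threshold of 0.05, and was tried on simulated data. There each gene varied alike on all arrays and no array stood apart, so that trial does not cover knockout phenobarbital replicate 2. Tables and plots used matplotlib 3.10.9, pandas 2.3.3 and numpy 2.4.6 under Python 3.11.15. Named genes were the 15 largest rises and falls that passed (none did), up to 4 genes with the smallest p from each of 42 lists, and a fixed set. Genes outside that rule (Hsd17b10, Kdm5a, Phlda1, Lpl, Lifr, Gclm, Igfbp1, Gadd45a, Marco, C1qc and those called in the smaller comparisons among them) were chosen after their values were seen. The samples, lists and rules were chosen with earlier results of these data known. Alternatives were another scaling (cyclic loess), other filters on dim genes, probe sets averaged per gene, array weights, a variance trend, a replicate block, a 2-fold limit, other sets of arrays, and leaving out each array. Nothing in the sources used here says that mice were from separate litters or hybridisation batches, so p-values measure the spread between these arrays.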

Additional observations from a re-analysis of the deposited data

Results flagged for a closer look

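Among the 6 other knockout arrays, 3 of 86 genes named had 1 array far from the rest, and chance alone gives about 1 in 20 groups. Atf4 read 8.70 on CITCO replicate 2, against 8.43 to 8.51 on the other 5. Ces2a read 10.58 on TCPOBOP replicate 2, against 9.61 to 9.96 on the other 5, and its call depends on that array. Dmgdh read 8.85 on corn oil replicate 1, against 9.06 to 9.19 on the other 5.

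For 14 genes the phenobarbital effect, taken from corn oil, differed between knockout and wild type in the test of the difference itself (limma, adjusted p under 0.05). The knockout effect minus the wild-type effect was -6.70 for Cyp2b10, -4.59 for Cyp2c55, -2.35 for Ccl9, -1.92 for Slc23a2 and -1.74 for Rarb. It was -1.52 for 4931406C07Rik, -1.50 for Spsb4, -1.50 for Stmn1, -1.43 for Aldh1a7, -1.39 for Slc22a26 and -0.92 for Tnfaip2. It was 1.00 for Hsd17b10, 1.04 for Dmgdh and 1.49 for Bhmt. The calls of Cyp2b10, Cyp2c55 and Slc23a2 held with each of the 8 arrays left out in turn, and the other 11 did not.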

How the results depend on the processing

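In knockout, the main count of 0 calls became 18 (11 higher, 7 lower) under cyclic loess scaling, 2 with the mean of probe sets, 1 with the replicate number as a block (Hsd17b10), 67 against corn oil, 1 against TCPOBOP, 4 against CITCO, and 1 in a fit of the 8 knockout arrays as 2 groups. Leaving out each array gave 0 to 696 calls, 7 without TCPOBOP replicate 2 and 696 without phenobarbital replicate 1. In wild type the count of 135 became 410 with array weights and 49 at a 2-fold limit, and 19 to 59 when an array was left out. In human CAR mice the count of 252 (54 higher, 198 lower) became 141 (51 higher, 90 lower) under cyclic loess, 2 with array weights, 51 at a 2-fold limit, and 3 to 1518 when an array was left out. The 14 genes of the genotype difference became 25 (5 higher, 20 lower) under cyclic loess, 22 with array weights, and 4 to 176 when an array was left out. Without both arrays that stand apart, a setting chosen after seeing the data, the counts were 6 in knockout, 246 in wild type and 11 in human CAR mice. No gene called in either setting changed direction, but the knockout change of 18 of 86 named genes took both signs over the settings, for example -3.04 to 0.49 for Cyp7a1, -3.81 to 0.32 for Dbp, -1.36 to 3.11 for Igfbp1, -0.42 to 1.37 for Cyp51 and -0.61 to 1.52 for Lss. The cause of these shifts was not tested. Same-numbered arrays did not pair: the correlation of deviations of knockout phenobarbital was -0.05 with corn oil, 0.09 with TCPOBOP and 0.23 with CITCO. With the replicate block, 145 genes were called in wild type, 254 in human CAR mice and 15 in the difference. Where an arm kept 1 array, that array was assumed to vary like the other groups. Signal near background limits dim genes such as Cyp2b10 in knockout.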
